A study of Mus musculus with 18 samples.

Results

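The genes described here are 8 repressors of the embryonic globin genes and their cofactors, which are Bcl11a, Zbtb7a, Sox6, Lin28b, Nr2c1, Nr2c2, Mbd2 and Chd4. They were chosen by gene symbol, and all 8 were found among the 54232 genes of the count table. The assay was 4sU-seq of nascent transcripts, in which RNA made during a short pulse of 4-thiouridine is purified through the label and sequenced. All cells came from livers of C57BL/6 mouse embryos at stages e12.5 to e13.5, were sorted by flow cytometry, rested in erythroid medium for 6 h and labelled for 45 min with 500 µM 4-thiouridine. No group carried an engineered allele or a drug treatment.

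The 5 erythroid populations were lineage negative and were ordered by CD71, the transferrin receptor, and Ter119, a surface marker of maturing erythroid cells. S0-Low cells are titled CD71 low and their markers are given as CD71- and Ter119-, S0-Medium cells had medium CD71, S1 cells had high CD71 without Ter119, S2 cells had high CD71 with medium Ter119, and S3 cells were high for both. Lin+ cells were positive for the lineage antibodies, which recognise CD41, CD45R, CD3e, CD11b and Ly-6G/6C. Each group had 3 replicate libraries, 18 in all. The labels do not say whether replicates came from separate litters or sorts, so the p-values measure the spread between these libraries.

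During development, erythroid cells pass from embryonic to adult globin genes, and sequence-specific repressors with chromatin-modifying cofactors keep the embryonic genes off in definitive cells. BCL11A and ZBTB7A (also called LRF) bind globin regulatory DNA through zinc fingers, and SOX6 is an HMG-box protein that acts with BCL11A. NR2C1 and NR2C2, also called TR2 and TR4, are orphan nuclear receptors that bind direct repeats in embryonic globin promoters as a heterodimer. CHD4 is the ATPase of the nucleosome remodelling and deacetylase complex NuRD, and MBD2 is its methyl-CpG-binding subunit. LIN28B is an RNA-binding protein of fetal cells that blocks let-7 maturation and acts on BCL11A after transcription.

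Library totals ranged from 9452476 counts in S0-Low replicate 3 to 40567976 in S1 replicate 1, so a floor of 3 counts corresponds to between 0.074 and 0.317 CPM, the count scaled to the library total. All 8 genes passed the filter on low counts in every comparison, and levels below are CPM scaled by TMM over the 18 libraries. The labels of the erythroid populations were checked against marker genes. The summed level of 6 maturing erythroid markers was 334 to 626 CPM in S0-Low and 27342 to 45352 CPM in S3, while 7 stem and progenitor markers summed to 1018 to 1509.8 CPM in S0-Low and 1.61 to 10.8 CPM in S3. Tfrc, the gene for CD71, was at 277 to 419 CPM in S0-Low and 6375 to 6954 CPM in S3. Of the markers of other cell types, 5 lists also had lower sums in S3, while 6 megakaryocyte markers summed to 32.6 to 142 CPM in S0-Low and 18.3 to 86.9 CPM in S3 and overlapped. From S0-Low to S3 the sum of 7 neutrophil markers went from 327 to 747 CPM to 0.0575 to 2.30 CPM, with 326 to 740 CPM in S0-Low from Mpo, which progenitors also express, and 1.08 to 7.13 CPM from the other 6. The sum of 6 macrophage markers went from 33.3 to 53.4 CPM to 0.0575 to 4.28 CPM. The sum of 8 lymphoid markers went from 19.9 to 35.5 CPM to 0 to 1.22 CPM, and that of 5 mast cell and basophil markers from 21.5 to 32.4 CPM to 0 CPM. The sum of 6 hepatocyte markers went from 5.86 to 9.05 CPM to 0 to 0.379 CPM. In S3, 4 neutrophil, 4 macrophage, 4 lymphoid and 5 mast cell and basophil markers had no count in any library, and 1, 2, 2 and 2 of them, in that order of lists, had none in S0-Low. In Lin+, which the labels also call erythroblasts, the erythroid sum was 223 to 259 CPM and 7 neutrophil markers summed to 3162 to 5741 CPM. Stem and progenitor markers summed to 1031 to 1526 CPM there, overlapping S0-Low, the megakaryocyte markers to 259 to 721 CPM and the macrophage markers to 205 to 304 CPM.

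Sequences upstream of the start site are shown for both embryonic globin genes that had an entry, since these are the DNA the repressors act on. They are also shown for Zbtb7a and for 1 of 6 annotated Sox6 starts, since these 2 repressors rose with maturation. The Sox6 start shown, the fourth in the table, was picked because it held the most kinds of motif. Of the other 5 starts, 3 held none, 1 held an AGGTCA and 1 held 2 AACAAT. Each run is the 250 bases before the start in the RefSeq promoter table (build GRCm38.p6), written 5′ to 3′ on the gene's strand. Capitals mark motifs searched on either strand. GATA factors recognise AGATAA and the related TGATAA. The CACC boxes of KLF factors were searched as CCACACCC, with the variants CCGCACCC and also CCACGCCC. BCL11A recognises TGACCA, nuclear receptors such as TR2 and TR4 recognise repeats of AGGTCA, and SOX proteins recognise AACAAT. None of these motifs overlap each other in the runs shown.
Hbb-y, chr7:103853208-103853457, minus strand: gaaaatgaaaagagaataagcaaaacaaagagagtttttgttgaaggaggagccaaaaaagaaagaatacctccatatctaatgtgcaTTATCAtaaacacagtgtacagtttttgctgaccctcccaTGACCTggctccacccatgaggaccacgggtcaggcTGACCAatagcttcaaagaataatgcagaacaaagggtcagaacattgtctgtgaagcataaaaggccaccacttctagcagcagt
Hba-x, chr11:32276350-32276599, plus strand: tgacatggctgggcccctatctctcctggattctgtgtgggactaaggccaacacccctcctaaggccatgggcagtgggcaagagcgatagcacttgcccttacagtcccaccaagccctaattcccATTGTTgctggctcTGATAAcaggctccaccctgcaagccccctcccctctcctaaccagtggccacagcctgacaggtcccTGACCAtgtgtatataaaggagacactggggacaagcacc
Zbtb7a, chr10:81136021-81136270, plus strand: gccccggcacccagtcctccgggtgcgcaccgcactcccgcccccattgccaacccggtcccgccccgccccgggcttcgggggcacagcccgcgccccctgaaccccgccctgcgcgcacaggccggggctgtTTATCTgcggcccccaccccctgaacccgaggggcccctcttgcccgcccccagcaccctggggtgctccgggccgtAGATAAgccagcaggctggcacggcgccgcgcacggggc
Sox6, chr7:115846141-115846390, minus strand: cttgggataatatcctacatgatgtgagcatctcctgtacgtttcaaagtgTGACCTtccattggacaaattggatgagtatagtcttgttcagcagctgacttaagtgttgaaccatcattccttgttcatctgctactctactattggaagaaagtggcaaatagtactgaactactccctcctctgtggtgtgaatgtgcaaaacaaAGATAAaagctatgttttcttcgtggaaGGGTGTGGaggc

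In this table Hbb-y carried a TGACCA whose first base lies 86 bases before the start, an AGGTCA element at 122 bases and a GATA motif at 162 bases. Hba-x carried a TGACCA at 40 bases, a GATA motif at 108 bases and an AACAAT at 122 bases. Zbtb7a had GATA motifs at 39 and 116 bases. Over the 32851 promoters of the table, 16.6% held a GATA motif, 9.13% a CACC box, 11.4% a TGACCA, 14.0% an AGGTCA and 9.42% an AACAAT. Of the members, 13 windows of 7 genes were examined, and those of Bcl11a, Nr2c1 and Nr2c2 held none of these letters. Lin28b and Chd4, which are not among the genes that rose, held such motifs too. Lin28b had GATA motifs at 123 and 196 bases. Chd4 had a GATA motif at 187 bases before its first start and a CACC box at 186 bases before its second. A match describes the letters only.

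Between the least and the most mature erythroid population, S3 against S0-Low, 5 of the 8 genes differed. Sox6, Zbtb7a and Mbd2 were higher in S3, and Nr2c1 and Chd4 were lower. Calls were made by the quasi-likelihood test of edgeR at an adjusted p under 0.05, with p-values adjusted after Benjamini and Hochberg across the 16555 genes tested. In the same comparison 35.8% of all genes passed, 13.4% higher and 22.4% lower. The 3 libraries of S3 did not overlap those of S0-Low for 6 of the 8 genes, against 42.5% of all genes tested. These are relative levels in bulk samples, in which fewer cells that transcribe a gene and less RNA per cell cannot be told apart. The part of the neutrophil, macrophage, lymphoid and mast cell markers, whose sums are lower in S3 as given above, in the S3 against S0-Low differences below was not tested.

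The direction of a small change depended on the scaling. The median log2 fold change of all genes was -0.54 under TMM scaling and -1.36 under scaling to library totals alone. Scaling moves all genes of a library alike, so distances from the median gene are nearly the same under both by construction. Sox6 was 7.67 above the median gene with TMM and 7.60 above with library totals, Zbtb7a 2.30 and 2.21, and Mbd2 2.20 and 2.20. Nr2c1 was at -2.90 and -2.86 and Chd4 at -0.94 and -0.91 relative to the median gene.

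**Figure D1:**
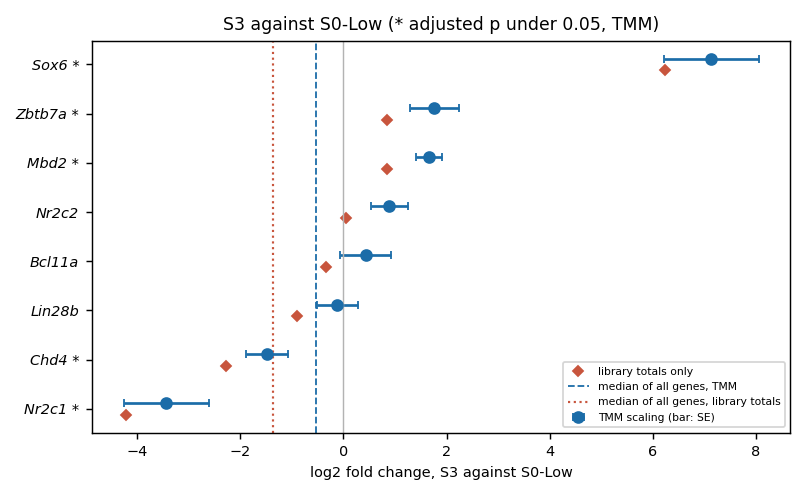
Log2 fold change of each repressor gene, S3 over S0-Low (x axis), with TMM scaling (circles, bars show SE from 3 libraries a population in a fit of 15) and with library totals only (diamonds). The vertical lines mark the median of all genes, -0.54 with TMM and -1.36 with library totals. Sox6 lies at 7.13 with TMM, and all points shift to the left with library totals.

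Sox6 showed the largest difference between population means of the 8 genes in S3 against S0-Low. Its levels in replicates 1, 2 and 3 were 11.7, 16.8 and 48.2 CPM in S0-Low and 92.3, 38.7 and 202 CPM in S0-Medium. They were 268, 133 and 528 CPM in S1, and 515, 415 and 2125 CPM in S2. In S3 they reached 3837, 2941 and 3958 CPM, and no library of S1, S2 or S3 overlapped S0-Low. Relative to S0-Low, the log2 fold change in S3 was 7.13 ± 0.92 (SE, n = 3 libraries each; edgeR adjusted p = 5.12e-05). Sox6 was also the only member called in S1 against S0-Low, at 3.60 ± 0.78 (edgeR adjusted p = 0.0216), a call that was lost when S0-Low replicate 1 or 2 or S1 replicate 1 or 3 was left out (adjusted p up to 0.113).

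**Figure D2:**
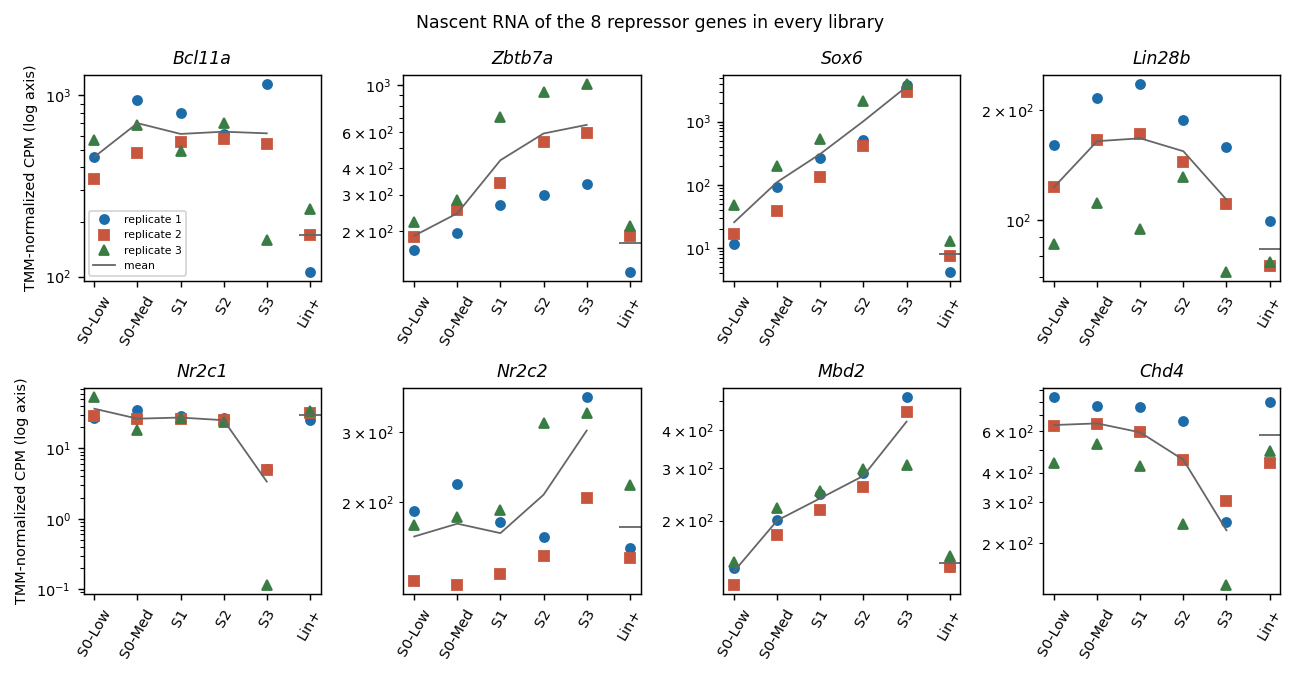
TMM-normalised CPM of each repressor gene (y axis, log scale, which differs between panels) in the 5 erythroid populations and Lin+ (x axis). Symbols are the 3 replicate libraries and the line joins the means of the erythroid populations. Sox6 climbs from 11.7 to 48.2 CPM in S0-Low to 2941 to 3958 CPM in S3, Nr2c1 drops in S3 to between 0.115 and 5.07 CPM, and Bcl11a spreads from 158 to 1156 CPM within S3.

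Zbtb7a rose more gently. In S0-Low it was at 163, 187 and 221 CPM, in S1 at 268, 342 and 705 CPM, and in S3 at 336, 589 and 1017 CPM. The libraries of S1, S2 and S3 all lay above those of S0-Low, and replicate 3 was the highest in each of the 5 populations. Relative to S0-Low, the log2 fold change in S3 was 1.76 ± 0.47 (SE, n = 3; edgeR adjusted p = 0.00987). With library totals it was 0.85 (edgeR adjusted p = 0.129), and without S3 replicate 3 it was 1.26 (edgeR adjusted p = 0.0585), so the call rested on the scaling and on that library.

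From S0-Low to S2, Mbd2 had the tightest replicates relative to the mean among the genes that rose. In S3 Sox6 did, with an SD of 556 on a mean of 3579 CPM, against 109 on 428 CPM for Mbd2. Mbd2 levels were 139, 122 and 145 CPM in S0-Low, 202, 179 and 221 CPM in S0-Medium, and 245, 217 and 250 CPM in S1. They were 289, 260 and 297 CPM in S2 and 516, 462 and 306 CPM in S3. S0-Medium already lay clear of S0-Low, and each later population except S1 lay clear of the one before it. Relative to S0-Low, the log2 fold change in S3 was 1.66 ± 0.26 (SE, n = 3; edgeR adjusted p = 0.000223).

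Chd4, the ATPase that MBD2 joins in NuRD, moved the other way. It was at 835, 633 and 440 CPM in S0-Low and stayed at 756, 593 and 427 CPM in S1. In S2 it was at 662, 454 and 242 CPM and in S3 at 246, 303 and 134 CPM, below every S0-Low library. Relative to S0-Low, the log2 fold change in S3 was -1.48 ± 0.40 (SE, n = 3; edgeR adjusted p = 0.0109).

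Ratios of 2 genes within a library do not change with scaling, and 5 such pairs were chosen after the values were seen. Ratios were taken from the raw counts, and 0.5 was added to each count only for the log2 ratios. The Mbd2 count was 0.167, 0.193 and 0.330 of the Chd4 count in S0-Low and 2.09, 1.53 and 2.29 of it in S3. The difference in the log2 ratio was 3.14. Mbd2 and Mbd3 occupy the same place in alternative NuRD complexes, and the Mbd2 to Mbd3 ratio was 0.915, 0.823 and 1.92 in S0-Low and 17.5, 5.16 and 4.87 in S3, a difference of 2.75 on the log2 scale. The log2 ratio of Chd4 to its paralogue Chd3 differed by -1.94. For each of these ratios S3 did not overlap S0-Low, and the two-sided exact permutation test gave p = 0.1, the smallest that 3 libraries against 3 allow.

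Of the other 13 NuRD subunits tested in S3 against S0-Low, 1 was higher and 1 was lower, beside 13.4% and 22.4% of all genes, and their median log2 fold change was -0.225, against -0.54 over all genes. The counts moved with the libraries, with 0 higher without S0-Low replicate 1, S0-Low replicate 2 or S3 replicate 3, 2 higher and 3 lower without S0-Low replicate 3, 2 lower without S3 replicate 2, and 5 lower with library totals. Those fits without a library called 24.6% to 32.7% of all genes in either direction, and the fit with library totals called 44.6%. Mta3, which contributes a metastasis-associated scaffold subunit, was at 98.2 to 160 CPM in S0-Low and 197 to 272 CPM in S3 (log2 fold change 0.98 ± 0.33 SE, edgeR adjusted p = 0.0308), a call that was lost in 10 of 16 alternatives, among them library totals (0.12, edgeR adjusted p = 0.778). Its paralogue Mta1 fell from 114 to 219 CPM to 79.7 to 85.4 CPM (-1.16 ± 0.28 SE, edgeR adjusted p = 0.00581). Mbd3 had a log2 fold change of -1.05 ± 0.45 and did not pass (edgeR adjusted p = 0.0755), and Mta2 was at -0.75 ± 0.36 (edgeR adjusted p = 0.113).

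The orphan receptors parted in S3. Nr2c1 was at 27.2, 29.4 and 53.5 CPM in S0-Low and still at 27.0, 25.0 and 23.6 CPM in S2. In S3 it was at 5.07, 4.96 and 0.115 CPM, the last from 2 counts in replicate 3, and all 3 libraries lay below every other library. The log2 fold change was -3.44 ± 0.83 in S3 against S0-Low (SE, n = 3; edgeR adjusted p = 0.00513), and a fit of only these 2 populations did not call it (-3.64, edgeR adjusted p = 0.0524). It was -2.89 ± 0.81 in S3 against S2 (edgeR adjusted p = 0.0354), and this call was lost without S2 replicate 1 (0.0874), without S2 replicate 2 (0.0825) and in a fit of only these 2 populations (0.236). Without replicate 3 in any population the latter was -2.37 (edgeR adjusted p = 0.00297).

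Nr2c2 did not fall with its partner. Its levels were 190, 126 and 174 CPM in S0-Low, 163, 146 and 316 CPM in S2, and 368, 205 and 336 CPM in S3. All 3 S3 libraries lay above S0-Low, by 0.89 ± 0.36 on the log2 scale (SE, n = 3), which did not pass (edgeR adjusted p = 0.0623). It passed with the replicate block (0.87, edgeR adjusted p = 0.0082) and without S3 replicate 2 (1.10, edgeR adjusted p = 0.039). With library totals the difference was 0.05. Of the 31-base words of the Nr2c2 transcripts 43.3% are shared with Mrps25, a mitochondrial ribosome gene that overlaps it on the opposite strand, and it is not stated whether counting used strand. Mrps25 was at 14.0 to 59.5 CPM in S0-Low and 5.98 to 39.6 CPM in S3, and its part in the Nr2c2 counts was not tested.

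Within libraries, Nr2c1 had 0.144, 0.233 and 0.307 of the Nr2c2 count in S0-Low and 0.166, 0.171 and 0.0748 in S2. In S3 it had 0.0138, 0.0242 and 0.000343. The mean log2 ratio was -2.20 ± 0.55 in S0-Low and -7.57 ± 3.16 in S3 (SD, n = 3 each), with no overlap and an exact permutation p = 0.1, the smallest possible here.

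**Figure D3:**
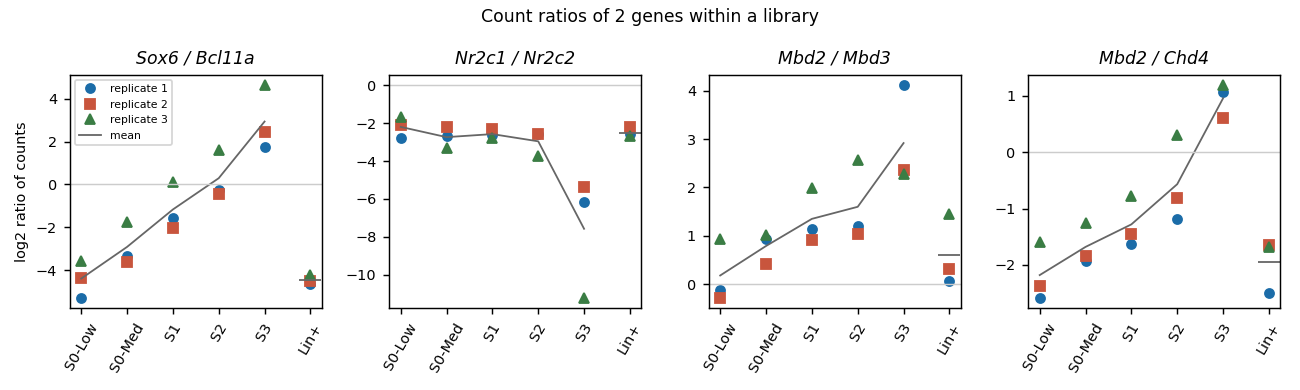
Log2 ratio of the counts of 2 genes in the same library (y axis) by population (x axis), with 1 symbol per replicate and a line through the erythroid means. The mean Sox6 to Bcl11a and Mbd2 to Chd4 ratios cross 0 between S1 and S3, the Mbd2 to Mbd3 ratio rises from a mean of 0.177 to 2.92, and the Nr2c1 to Nr2c2 ratio drops in S3.

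Bcl11a was transcribed in all 5 erythroid populations without a called change. It was at 457, 346 and 570 CPM in S0-Low, 941, 480 and 686 CPM in S0-Medium, and 797, 549 and 492 CPM in S1. In S2 it was at 610, 572 and 708 CPM. The 3 libraries of S3 differed most, at 1156, 537 and 158 CPM, so S3 held both the highest and the lowest erythroid level. Relative to S0-Low, the log2 fold change in S3 was 0.43 ± 0.50 (SE, n = 3; edgeR adjusted p = 0.515), and it was -0.33 with library totals and -0.41 without S3 replicate 1. The Sox6 count was 0.0255, 0.0486 and 0.0847 of the Bcl11a count in S0-Low and 3.32, 5.48 and 25.0 times it in S3, with no overlap (exact permutation p = 0.1).

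Lin28b, the fetal RNA-binding protein, likewise showed no called change. It was at 160, 123 and 86.4 CPM in S0-Low, 236, 172 and 94.9 CPM in S1, and 158, 111 and 72.5 CPM in S3. Each population overlapped the next. Between libraries of the same replicate number, the log2 level moved by 0.433, 0.424 and 0.369 from S0-Low to S0-Medium. From S2 to S3 it moved by -0.246, -0.379 and -0.852, and the steps between went both ways. The log2 fold change in S3 over S0-Low was -0.12 ± 0.39 (SE, n = 3; edgeR adjusted p = 0.835). Without S0-Low replicate 1 it was 0.05 and without S3 replicate 3 it was 0.11.

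Between neighbouring populations few members were called. None of the 8 passed in S0-Medium against S0-Low, in S1 against S0-Medium or in S2 against S1 by edgeR, and 0% of all genes passed at each of these steps. At an unadjusted p under 0.05 the counts were 2, 0 and 1 members beside 3.26%, 6.86% and 4.03% of all genes, and DESeq2 called 0 members at each step beside 47, 401 and 147 of all genes. In S3 against S2 only Nr2c1 passed, against 9.35% of all genes. With the replicate number as a block, Sox6 (2.29, edgeR adjusted p = 0.00117) and Chd4 (-0.94, edgeR adjusted p = 0.00897) passed as well, making 3 members beside 18.6% of all genes in that fit.

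Fewer members passed in S1 and S2 than in S3 when each was compared with S0-Low. In S1 1 member passed against 2.92% of all genes, and with the replicate block 3 passed beside 6.03% of all genes, with Zbtb7a at 1.06 (edgeR adjusted p = 0.0235) and Mbd2 at 0.80 (edgeR adjusted p = 0.0353) beside Sox6. In S2 3 members passed against 11.3% of all genes, with log2 fold changes of 5.31 ± 0.85 for Sox6 (edgeR adjusted p = 0.00134), 1.62 ± 0.47 for Zbtb7a (0.037) and 1.05 ± 0.25 for Mbd2 (0.0156, all SE, n = 3). The Zbtb7a and Mbd2 calls were both lost without S0-Low replicate 1 or without S0-Low replicate 2, which left 1 member, and the Zbtb7a call also without S2 replicate 2, S0-Low replicate 3 or S2 replicate 3. Scaling by median-ratio (RLE) factors or library totals and a fit of only the 2 populations left 1 member as well. In all, 10 of 16 alternatives did not call Zbtb7a and 6 did not call Mbd2. Both comparisons were added after the data were seen. The edgeR test of any difference among the 5 populations called the same 3 genes, against 24.6% of all genes, while Nr2c1 (adjusted p = 0.0519) and Chd4 (0.0566) lay just outside. With the replicate block it called 6 members beside 33.1% of all genes, adding Nr2c1 (edgeR adjusted p = 0.043), Chd4 (0.00063) and Nr2c2 (0.0268).

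Following libraries of the same replicate number through the 4 steps, Sox6, Zbtb7a and Mbd2 rose in 12 of 12 moves. Of all genes tested 1.86% rose in every move. Scaled by library totals, Sox6 still rose in 12 of 12 moves, Mbd2 in 10 and Zbtb7a in 9. Chd4 rose in 2 of 12 moves and Nr2c1 in 3 of 12.

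Replicate 3 stood apart within the populations. Zbtb7a and Sox6 were highest in replicate 3 in 5 of 5 erythroid populations, while Lin28b and Chd4 were lowest there in 5 of 5. Among genes that mark erythroid or progenitor stages, Alas2 was highest in replicate 3 in 5 of 5 populations, Slc4a1 in 4, and Kit and Cd34 in 2 each, while Kit was lowest there in 2 and Gata2 in 5. Without replicate 3 in any population, the same 5 members passed in S3 against S0-Low beside 37.7% of all genes, with log2 fold changes of 7.89 for Sox6, 1.40 for Zbtb7a, 1.90 for Mbd2, -2.50 for Nr2c1 and -1.42 for Chd4. The part of these markers in the spread of the members between replicates was not tested.

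Levels of different genes were compared per kilobase of the longest GENCODE M1 transcript. In S0-Low the order of mean levels ran from Chd4 (95.0 CPM per kb), Bcl11a (76.4) and Mbd2 (69.4), which overlapped as neighbours, to Zbtb7a (32.1), Lin28b (22.8) and Nr2c2 (21.4), with Nr2c1 (9.83) and Sox6 (3.11) last and clear of their neighbours. In S3 Sox6 was first at 435 ± 67.5 CPM per kb (SD, n = 3), clear of Mbd2 at 219 ± 55.9. Zbtb7a (109), Bcl11a (103), Nr2c2 (39.6), Chd4 (34.0) and Lin28b (21.1) followed, and neighbours from Mbd2 to Lin28b overlapped. Nr2c1 was last at 0.906, clear of Lin28b.

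Among 12 genes that act on the repressors, 11 were tested in S3 against S0-Low, and 3 were higher and 5 lower, beside 13.4% and 22.4% of all genes. The 3 that rose are named after their values were seen. Klf1, an activator of Bcl11a and Zbtb7a, went from 81.1 to 216 CPM in S0-Low to 671 to 1233 CPM in S3 (log2 fold change 2.93 ± 0.54 SE, edgeR adjusted p = 0.000782). The heme-regulated kinase gene Eif2ak1 and its downstream factor Atf4 rose by 4.06 ± 0.52 and 2.43 ± 0.38 on the same scale (edgeR adjusted p = 5.12e-05 and 0.000227). Zfp410, an activator of Chd4 that was also named after its value was seen, was at 48.7 to 60.3 CPM in S0-Low and 64.2 to 140 CPM in S3 (0.94 ± 0.38, edgeR adjusted p = 0.067).

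The 5 that fell in that list included Igf2bp2, Lin28a and Myb. Igf2bp2, an RNA-binding protein of fetal cells, was at 32.6 to 133 CPM in S0-Low and at 0, 1.85 and 0.172 CPM in S3. Lin28a, the paralogue of Lin28b, was already low in S0-Low at 1.09 to 4.82 CPM and had 1 count in all S3 libraries together (edgeR adjusted p = 0.0385), a call lost on leaving out any 1 library of S0-Low or S3. Myb, a progenitor factor, fell from 694 to 1130 CPM to 17.6 to 28.2 CPM (-5.16 ± 0.54 SE, edgeR adjusted p = 1.15e-05).

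Of 13 other corepressors none was higher and 4 were lower, with a median log2 fold change of -0.564 beside -0.54 over all genes, of which 22.4% were lower. With library totals 11 were lower, in a fit that called 44.6% of all genes in either direction at a median of -1.36. The lower count was 1 without S3 replicate 2, where 31.4% of all genes were called in either direction. It was 2 without S0-Low replicate 1 (26.5%) or in a fit of only the 2 populations (28.6%), and 6 without S0-Low replicate 3 (32.7%). The histone methyltransferase gene Ehmt2 was at 94.8 to 114 CPM in S0-Low and at 19.8, 3.02 and 0 CPM in S3 (-3.82 ± 1.06 SE, edgeR adjusted p = 0.0121). With 1 library left out the Ehmt2 fold change ran from -6.13 to -3.25, and 1 alternative did not call it. Tbl1xr1, which encodes a WD-repeat corepressor subunit, was at 139 to 266 CPM in S0-Low and 44.2 to 108 CPM in S3 (-1.48 ± 0.42 SE, edgeR adjusted p = 0.0126).

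Of 10 paralogues tested none was higher and 4 were lower, beside 22.4% of all genes. The lower count was 2 without S0-Low replicate 1, S0-Low replicate 2, S3 replicate 1 or S3 replicate 3. Those fits called 24.6% to 29.5% of all genes in either direction. With at least 10 counts in every library it was 1, beside 38.5% of all genes called. Sox13, another SOX gene of the same group, was at 20.9 to 38.9 CPM in S0-Low and had no count in S3. Zbtb7b was at 15.9 to 19.9 CPM in S0-Low and had 1 count in S3. Sox5, also a SOX gene of that group and named after its value was seen, was at 3.49 to 7.57 CPM in S0-Low and 0.151 to 0.406 CPM in S3 (-4.31 ± 1.46 SE, edgeR adjusted p = 0.0317). The Sox5 call was lost without S0-Low replicate 1, S0-Low replicate 2, S3 replicate 1 or S3 replicate 3, where only Sox13 and Zbtb7b were called lower.

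The embryonic globin genes, targets of these repressors, were low and were transcribed mostly in S3. Hbb-y had 0, 3 and 0 counts in S0-Low and was at 4.19, 1.23 and 5.96 CPM in S2 and 75.6, 26.2 and 107 CPM in S3. Hbb-bh1 had no count in S0-Low and was at 28.5, 39.8 and 58.7 CPM in S3, at least 1282-fold higher than a floor of 3 counts over the group. Hba-x had no count in S0-Low either and was at 45.0, 5.59 and 32.2 CPM in S3, at least 835-fold higher by the same floor. All 3 passed in S3 against S0-Low (edgeR adjusted p between 0.0003 and 0.0017), and so did 4 of 4 adult globin genes tested, led by Hba-a2 (9.71 ± 0.91), Hbb-b1 (8.67 ± 0.99) and Hba-a1 (8.20 ± 0.92, log2 ± SE). Sequence shared between near-identical globin genes leaves their counts uncertain.

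**Figure D4:**
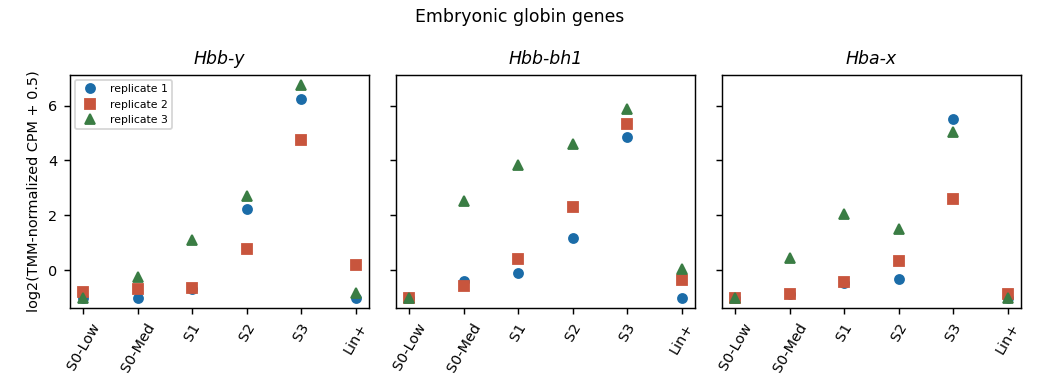
Log2(TMM-normalised CPM + 0.5) of the embryonic globin genes (y axis) by population (x axis), with 1 symbol per replicate library. Libraries without a count sit at -1. All 3 genes are highest in S3, where Hbb-y spans 26.2 to 107 CPM, and replicate 3 leads in S1.

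Lin+ cells were compared with the erythroid populations in a fit of all 18 libraries. Against S0-Low none of the 8 members passed by edgeR, against 0.715% of all genes, with 2 members at an unadjusted p under 0.05 beside 9.85% of all genes, and 0 members by DESeq2 beside 3.47%. Bcl11a, at 107, 170 and 235 CPM in Lin+, lay below every S0-Low library (-1.42 ± 0.50, SE, n = 3; edgeR adjusted p = 0.259). Sox6 was at 4.24, 7.54 and 12.7 CPM in Lin+ (-1.64 ± 0.72, edgeR adjusted p = 0.437).

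Against S3, 6 of 8 members passed, against 42.2% of all genes, with 4 members lower and 2 higher beside 14.1% and 28.2% of all genes. Sox6 was lower by 8.77 on the log2 scale (fold change -8.77 ± 0.97 SE, edgeR adjusted p = 3.13e-06). Zbtb7a (-1.87 ± 0.46), Bcl11a (-1.86 ± 0.50) and Mbd2 (-1.57 ± 0.24) were lower as well (edgeR adjusted p = 0.00351, 0.00734 and 6.25e-05). Nr2c1 (3.16 ± 0.76) and Chd4 (1.34 ± 0.40) were higher (edgeR adjusted p = 0.00313 and 0.0123). The Chd4 call was lost without Lin+ replicate 1 (0.0621) or S3 replicate 3 (0.0576), and a fit of only these 2 groups left 4 members, beside 41.2% of all genes, without Nr2c1 (edgeR adjusted p = 0.0501) and Bcl11a (0.105). With library totals Zbtb7a (-1.0, edgeR adjusted p = 0.0674) and Bcl11a (-1.13, edgeR adjusted p = 0.0841) did not pass, and Bcl11a was at -1.02 without S3 replicate 1 (edgeR adjusted p = 0.0836).

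**Figure D5:**
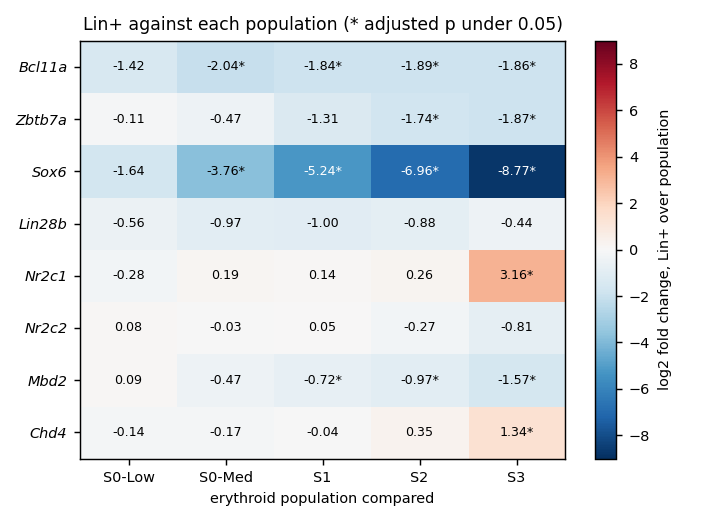
Log2 fold change of Lin+ over each erythroid population (columns) for the repressor genes (rows), coloured from lower in Lin+ (blue) to higher (red), with asterisks at an edgeR adjusted p under 0.05 over 17755 genes. Sox6 runs from -1.64 against S0-Low to -8.77 against S3, Bcl11a is negative in every column, and Nr2c1 and Chd4 are called only against S3.

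The columns of these comparisons share the Lin+ libraries. Bcl11a passed against S0-Medium (-2.04 ± 0.51, edgeR adjusted p = 0.0302), S1 (-1.84 ± 0.50, 0.0186) and S2 (-1.89 ± 0.50, 0.0114). The only erythroid library inside its Lin+ range was S3 replicate 3. Mbd2 was at 140, 140 and 153 CPM in Lin+, which overlapped S0-Low and lay below every library of the later populations. Chd4 at 794, 439 and 493 CPM and Nr2c1 at 25.1, 31.5 and 34.2 CPM in Lin+ overlapped S0-Low.

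For each member the genes with the most similar levels over the 15 erythroid libraries were ranked by Pearson r of log2(CPM + 0.5) among 9635 genes. These correlations share libraries and the order of maturation and are given as description. The lists depend on the measure. By Spearman's rho none of the 3 genes named here for Sox6, Zbtb7a, Nr2c1, Mbd2 or Chd4 was among the nearest 3, and for Sox6 these were Usp25, March8 and Usp32. Sox6 was closest to Ell2 (0.988), to the erythrocyte membrane gene Epb4.2 (0.986) and to Mgst3 (0.985). Mbd2 was closest to Dqx1 (0.959), Agfg1 (0.948) and Rhag (0.945), and Zbtb7a to Wdr81 (0.967), Rad51ap1 (0.964) and Rbbp8 (0.957).

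The genes that fell had other neighbours. Chd4 was closest to Prkar2a (0.979), Dhx37 (0.977) and Ldha (0.972), and Nr2c1 to Zmym4 (0.982), Asb7 (0.980) and Gne (0.975). Nr2c2 was closest to Pkig (0.948), Dyrk1a (0.933) and Mkln1 (0.924), Lin28b to Eif3h (0.953), Xpo4 (0.947) and Urb1 (0.934), and Bcl11a to Zbtb40 (0.942), Dnajc24 (0.917) and Tm2d1 (0.914). Among the members themselves the highest r was 0.936 between Sox6 and Mbd2 and the lowest was -0.810 between Zbtb7a and Chd4.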

How the data were processed

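Nascent RNA of 18 sorted mouse fetal liver samples, 3 in each of 6 groups, was sequenced from a stranded total RNA kit with PCR and no molecular identifiers. Per the submitters' processing notes the authors used kallisto 0.43.0 and GRCm38. They deposited read counts per gene, not normalised, and these are the values used here. The transcript set, the treatment of introns and the strand setting are not given in the sources used here.

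The deposited counts were tested with edgeR 4.0.16 (TMM, filterByExpr by group, quasi-likelihood, R 4.3.3) with Benjamini-Hochberg adjustment over all genes at 0.05. The 15 erythroid libraries (16555 genes) gave the erythroid comparisons and all 18 (17755 genes) those with Lin+. Alternatives were DESeq2 1.42.0, RLE factors, library totals, other filters, a replicate block and leaving out libraries. Values after ± are standard errors from the quasi-likelihood fit, which include the spread between libraries, or SD between libraries where so marked. Scripts were tested on simulated data.

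The members and lists were chosen with earlier results of these data known. The text names all members, the 3 largest called changes of each list in S3 against S0-Low, all embryonic globin genes, and for each member the 3 most similar genes of at least 5 CPM. The values of 1 gene that this rule names and of 1 marker gene are not reported here. Mbd3, Mta2, Chd3, Sox5, Zfp410, Tfrc, Mpo and Mrps25 were added after their values were seen.

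Same-numbered libraries deviated together (every r over 0.1) at each neighbouring step, in S1 and S2 against S0-Low and in Lin+ against S0-Low, with r from 0.171 to 0.553. In S3 against S0-Low (0.0837 to 0.134) and Lin+ against S3 (0.0969 to 0.168) not every pair passed 0.1. Replicates differed by more than sampling noise.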

Additional observations from a re-analysis of the deposited data

How the results depend on the processing

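In S3 against S0-Low, 4 to 6 members were called when 1 library was left out (24.6% to 32.7% of all genes), beside 5 with all of them (35.8%). In Lin+ against S3 the range was 5 to 6 (31.3% to 37.7%) beside 6 (42.2%), and in Lin+ against S0-Low it was 0 throughout (0.226% to 0.367%). Without a filter on low counts 1 member, Sox6, was called at each of the first 3 steps, beside 0.183%, 1.13% and 0.267% of all genes. In S3 against S2, where 1 member and 9.35% of all genes were called, library totals, no filter and DESeq2 each gave 2 (15.4%, 8.81% and 20.1% of all genes). At least 10 counts in every library, where Nr2c1 was not tested, and a fit of only the 2 populations each gave 0 (14.5% and 0.823%). The replicate block gave 3 (18.6%), leaving out replicate 3 of every population gave 4 (18.9%), and leaving out 1 library gave 0 to 3 (3.94% to 13.4%). In S1 against S0-Low, with 1 member called, the replicate block gave 3 (6.03%), DESeq2 gave 2 (9.83%) and leaving out 1 library gave 0 to 1 (0.676% to 1.7%). In S2 against S0-Low, with 3 called, RLE factors, library totals and a fit of only the 2 populations each gave 1 (10.5%, 10.3% and 10.8%), and leaving out 1 library gave 1 to 3 (5.07% to 7.64%). The test of any difference among the 5 populations called 3 members, 5 with no filter, with DESeq2, with all 18 libraries or without replicate 3 (21.6%, 36.9%, 29.2% and 27.7%), 6 with the replicate block (33.1%), and 2 to 4 when 1 library was left out (18.7% to 24.2%). The cause of these differences was not tested. The S1 and S2 comparisons with S0-Low and the fits without replicate 3 were added after the data were seen.

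Directions turned for genes that were not called. Bcl11a in S3 against S0-Low was -0.33 with library totals and -0.41 without S3 replicate 1, and Lin28b was 0.05 without S0-Low replicate 1 and 0.11 without S3 replicate 3. Lin28b in Lin+ against S3 was 0.30 with library totals. With 1 library left out, Bcl11a in S3 against S0-Low ran from -0.41 to 0.88 and Lin28b from -0.44 to 0.11. In Lin+ against S0-Low, leaving out 1 library gave Zbtb7a -0.26 to 0.077, with 0.0085 in between, Nr2c1 -0.45 to 0.094, Nr2c2 -0.14 to 0.20, with -0.077 in between, and Chd4 -0.45 to 0.10, with 0.016 in between. Nr2c2 was -0.094 there without replicate 3 of every population.

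Same-numbered libraries deviated together only weakly in S3 against S0-Low (r 0.0837 to 0.134) and in Lin+ against S3 (0.0969 to 0.168). In S3 against S0-Low the replicate block called Nr2c2 as well (0.87, edgeR adjusted p = 0.0082), with 42.4% of all genes called beside 35.8% without it. In Lin+ against S3 the block added Nr2c2 too (edgeR adjusted p = 0.00991), with 48.1% of all genes called beside 42.2%. Few or no counts were found for Nr2c1 in S3 replicate 3 and for the embryonic globin genes in S0-Low, so fold changes there are uncertain. S3 replicate 3, with 2 Nr2c1 counts, held 30056070 counts in all, and S3 replicate 1, with 67, held 17978747. Fold changes are relative within a library, so the amount of RNA per cell was not measured.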
